A study of Mus musculus with 6 samples.

Results

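Retained-intron transcripts are annotated RNA models that keep intron sequence which the gene's coding transcripts remove. They were taken here as every deposited transcript that the GENCODE M21 mouse annotation types as retained_intron and that reached an estimated count of at least 20 in 3 or more of the 6 libraries. This rule gave 11041 transcripts in 5968 genes, out of 21457 retained-intron transcripts and 118783 transcripts of any type listed in the files. The 6 libraries are bulk paired-end RNA-seq of cardiac macrophages sorted from digested mouse hearts, 3 labelled Tet2 KO (Tet2-/-) and 3 labelled Tet2 WT (Tet2+/+), all C57BL/6J and all derived from donor hematopoietic progenitor cells. The series title places them in nonconditioned mice with Tet2-mediated clonal hematopoiesis and age-associated cardiac dysfunction, but the labels give no age, no recipient genotype, no deleted part of Tet2 and no sort gate, and do not say that the libraries are separate animals, so a p-value here reflects how much these libraries vary, and that variation could be technical. In such bulk samples, fewer cells of a type and less RNA per cell cannot be told apart.

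Introns are removed by the spliceosome, which recognises a GT at the 5' end and an AG at the 3' end of most introns, and SR proteins and hnRNP proteins steer which sites it uses. A transcript that keeps an intron usually stays in the nucleus or is destroyed by nonsense-mediated decay, the pathway that removes RNAs with an early stop codon. Genes of splicing factors such as the SR proteins and of their CLK kinases are known for introns that are held back and released on demand, and intron retention is known to lower the output of some genes in blood cells. Tet2, the enzyme that oxidises 5-methylcytosine and is often mutated in clonal hematopoiesis, is background for the comparison of genotypes.

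The retained-intron models had several shapes when set against the coding transcripts of their genes. Of the 11041, 3924 (35.5%) spanned at least 1 whole intron of a coding transcript (of 30 nt or longer), 3919 ended inside an intron, 1923 started inside one and 1135 did both. All but the first of these shapes can also come from a transcription start or a polyadenylation site within an intron, and short-read quantification does not tell these from a kept intron. Models with a whole intron had a median of 43.1% of their length in intron sequence, those that started in an intron 29.7%, and those that did both 83.7%. Among the models with a whole intron, 2478 held 1 intron, 806 held 2 and 640 held 3 or more.

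The introns spanned whole were short. The 5923 distinct introns had a median length of 344 nt, against 880 nt for the 39753 introns of coding transcripts of the same genes and 1386 nt for the 150137 introns of all genes' coding transcripts, where the coding transcripts passed the same count rule. Of the spanned introns 98.3% began with GT, 99.4% ended with AG, and 91.2% lay between coding exons. These features belong to the annotation and the count rule and hold for both genotypes alike.

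**Figure D1:**
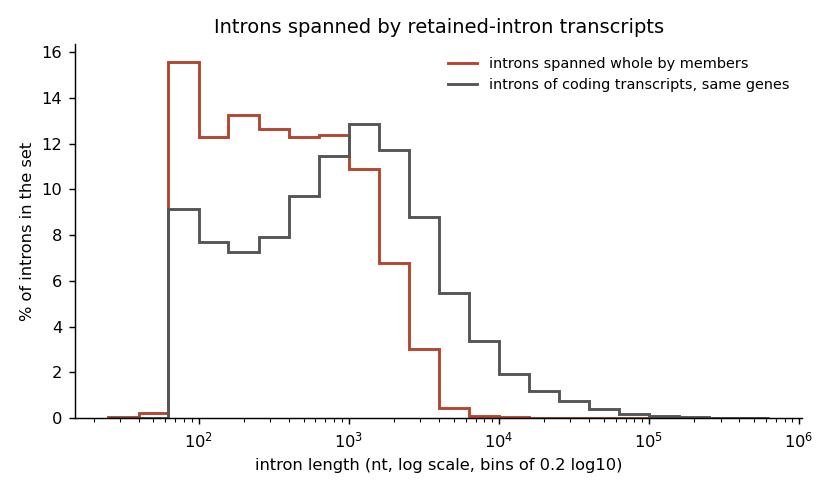
Length of introns in nucleotides (log axis, bins of 0.2 log10 units) against the percent of introns in each bin, for the 5923 introns spanned whole by retained-intron transcripts and the 39753 introns of coding transcripts of the same genes. The spanned introns sit to the left, with a median of 344 nt against 880 nt.

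The sequences below show where intron enters the models that the share results turn on. They were read from the GENCODE M21 transcript sequences (GRCm38), 5' to 3' on the gene's strand, with 10 exon bases beside the intron and the GT or AG at the intron's end in capitals. Ctdsp1-202 and Ppp6r1-203 kept whole introns, and of the 3 in Ppp6r1-203 the pair printed whole were 87 and 84 nt long. Dmd-205 ran from exon 7 into the following intron, and Ncf1-207, Kcp-205, Nbea-207 and Kif23-208 began inside an intron and ran through its 3' end. The sites that are only read through were chosen for printing after the values were seen.
Ctdsp1-202, 5' end of intron 2, 370 nt, chr1:74393427-74393796, plus strand: catccctaagGTttgtggcaatttggatgc
Ctdsp1-202, 3' end of the same intron: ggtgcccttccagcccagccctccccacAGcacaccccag
Dlc1-205, 5' end of intron 13, 2113 nt, chr8:36574922-36577034, minus strand: cttctccaagGTacagatcagatgcaaggg
Dlc1-205, 3' end of the same intron: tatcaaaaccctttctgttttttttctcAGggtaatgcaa
Ppp6r1-203, whole intron 8, 87 nt, chr7:4641418-4641504, minus strand: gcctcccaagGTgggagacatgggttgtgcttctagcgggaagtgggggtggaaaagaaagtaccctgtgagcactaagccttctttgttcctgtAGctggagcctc
Ppp6r1-203, whole intron 9, 84 nt, chr7:4641181-4641264, minus strand: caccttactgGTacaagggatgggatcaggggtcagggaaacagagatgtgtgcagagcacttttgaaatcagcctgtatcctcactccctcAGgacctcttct
Akap8l-207, whole intron 4, 102 nt, chr17:32338355-32338456, minus strand: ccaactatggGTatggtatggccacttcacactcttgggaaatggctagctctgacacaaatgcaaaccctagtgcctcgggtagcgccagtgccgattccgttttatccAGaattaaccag
Ncf1-207, read through the 3' end of intron 9, chr5:134222176-134222681, minus strand: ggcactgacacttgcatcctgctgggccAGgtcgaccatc
Dmd-205, read through the 5' end of intron 7, chrX:83489946-83627261, plus strand: gatcctgaagGTtggtagattcttagactg
Nbea-207, read through the 3' end of intron 40, chr3:55786578-55805236, minus strand: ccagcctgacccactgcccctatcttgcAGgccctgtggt
Kcp-205, read through the 3' end of intron 35, chr6:29484095-29484614, minus strand: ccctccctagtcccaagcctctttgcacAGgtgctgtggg
Kif23-208, read through the 3' end of intron 18, chr9:61921247-61923904, minus strand: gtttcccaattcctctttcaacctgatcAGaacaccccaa

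Before the members, the whole libraries were set side by side. Depth was 37349505 to 55771087 estimated counts, lowest in Tet2 KO replicate 1, where 328 members had 0 counts against 127 and 163 in the other Tet2 KO libraries and 70 to 89 in Tet2 WT. Tet2 itself stood at 81.1, 82.4 and 78.6 CPM (counts scaled to a common library total) in Tet2 KO and 57.5, 75.6 and 60.8 CPM in Tet2 WT; since the labels do not name the deleted part, reads from the rest of the gene check nothing. The 16 macrophage markers summed to 38957 to 45983 CPM in Tet2 KO and 24536 to 33039 CPM in Tet2 WT, with 14 called higher at the gene level. The 16 fibroblast markers summed to 2190 to 4202 CPM in Tet2 KO and 16918 to 31597 CPM in Tet2 WT, with all 16 called lower and none at 0 in every library. Pericyte and smooth muscle markers summed to 35.1 to 65.6 CPM against 130 to 210 CPM (2 of 9 called lower), erythroid markers to 325 to 717 CPM against 34.2 to 262 CPM (1 of 5 tested called higher), and 3 of 5 B cell markers tested were called higher. Mitochondrial genes took 2.83%, 8.06% and 5.58% in Tet2 KO and 8.88%, 7.47% and 6.51% of counts in Tet2 WT; the part of these in the results was not tested. Results below on genes that fibroblasts express move with that difference, and its part in them was not tested. A fit with the marker level as a covariate is given below. That level nearly follows genotype, so the fit cannot tell marker level and genotype apart.

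Retained-intron transcripts together held 7.40%, 6.84% and 7.19% of all TPM (transcript abundance per length, scaled to a common total per library) in Tet2 KO and 6.16%, 6.63% and 6.80% in Tet2 WT, or 7.14% ± 0.28 against 6.53% ± 0.33 (mean ± SD, n = 3 each). The 2 ranges did not overlap, with the lowest Tet2 KO library just above the highest Tet2 WT library. The 10 most abundant members held 1.61%, 1.18% and 1.42% in Tet2 KO and 0.81%, 1.06% and 0.96% in Tet2 WT, and without them the sums were 5.66% to 5.78% and 5.36% to 5.84%, which overlapped. A different measure, the member's share of its own gene's TPM, had a median over the members of 5.86%, 7.10% and 6.38% in Tet2 KO and 6.94%, 6.97% and 6.97% in Tet2 WT. Its mean was 0.52 percentage points lower in Tet2 KO, less than the 0.62 SD between the Tet2 KO libraries, and 0.23 lower without Tet2 KO replicate 1.

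**Figure D2:**
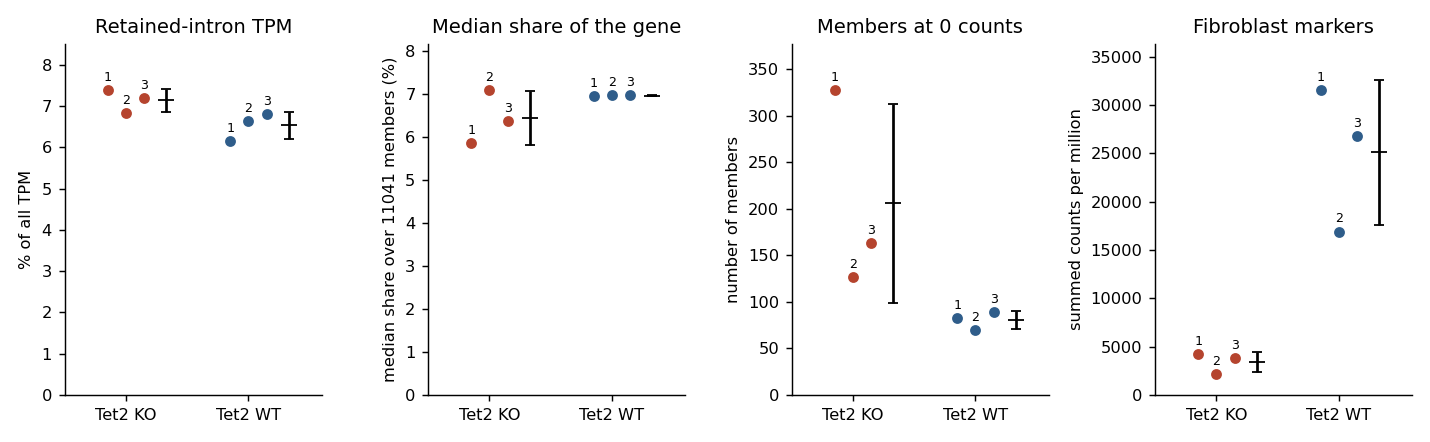
Values for each library, Tet2 KO in red and Tet2 WT in blue, numbered by replicate, with the mean and SD in black: percent of all TPM in retained-intron transcripts, median share of the gene over 11041 members in percent, number of members at 0 counts, and summed CPM of 16 fibroblast markers. Tet2 KO replicate 1 has the lowest median share (5.86%) and the most members at 0 (328).

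The main question was whether a retained-intron transcript took a larger or smaller part of its gene in Tet2 KO than in Tet2 WT. For almost all members no such change was called. Of the 10868 members that could be fitted, 1 changed, Ncf1-207, and it rose (limma on the log2 odds of the share, Benjamini-Hochberg adjusted p under 0.05 over all 40905 transcripts fitted). Across transcripts of every type 0.0709% were called, among them 25 of 23123 coding transcripts. At an unadjusted p under 0.05 there were 287 members higher and 373 lower, 6.07% of those fitted, below the 8.99% of all transcripts fitted. The shares of 1479 members (13.6%) did not overlap between genotypes, 577 higher and 902 lower in Tet2 KO; over all transcripts fitted 14.7% did not overlap, so the members' share is near that background. The median log2 odds over the members was -0.09, beside -0.03 over all transcripts. The remaining 173 members had no value because the gene's other transcripts did not reach the count rule.

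Ncf1-207 (ENSMUST00000182626.1, chr5:134221372-134222222, minus strand, 690 nt) comes from Ncf1, which encodes p47phox, the cytosolic organiser of the phagocyte NADPH oxidase. It starts inside intron 9, so that 47 of its bases are intron. Its share of the gene was 11.1%, 6.62% and 11.98% in Tet2 KO and 0%, 0% and 0.37% in Tet2 WT. Its estimated counts were 200, 215 and 412 against 0, 0 and 8.21, so that it was close to undetected in each Tet2 WT library. The log2 odds rose by 5.97 ± 0.75 (SE, limma adjusted p = 0.0369), a size that depends on the pseudocount since Tet2 WT lay near 0. Ncf1-207 is among the 25 members that passed the count rule through the Tet2 KO libraries alone and had to differ for that reason.

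The main coding transcript of Ncf1, Ncf1-202, moved the other way in share. The shares of a gene's transcripts add up to the whole, so its fall is no evidence separate from the rise of Ncf1-207. Ncf1-202 made up 86.0%, 87.9% and 85.3% of the gene in Tet2 KO and 96.6%, 96.5% and 95.6% in Tet2 WT. Its log2 odds fell by 1.98 ± 0.23 (limma adjusted p = 0.0263). Its own abundance did not pass the test (log2 fold change 0.49 ± 0.18, edgeR adjusted p = 0.217), and neither did that of the gene (0.56 ± 0.17, adjusted p = 0.0509). With all retained-intron transcripts of a gene added together, which in Ncf1 are mostly Ncf1-207 and so no separate evidence, Ncf1 was called, at 12.2%, 8.23% and 12.5% of the gene against 0.66%, 0.73% and 1.45% (log2 odds 3.60 ± 0.42, limma adjusted p = 0.00737); it was 1 of 5936 genes, or 0.0168%. This sum was added after the first results were seen. The call on Ncf1-207 was lost without any single Tet2 WT library (adjusted p = 0.0633 to 0.136), with share taken from estimated counts (0.218), with a pseudocount of 0.01 TPM (0.230), with a single prior without trend (0.0586) and without the low-count filter (0.0528), in the same direction each time. It was also lost with the arcsine square root (limma adjusted p = 0.227), the replicate number as a block (0.0601) and the fibroblast marker covariate (0.588). It held with coding transcripts alone as the others (0.0412), with a pseudocount of 0.5 TPM (0.00573) and with edgeR's diffSpliceDGE (its adjusted p = 0.00217).

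No other rise passed the test. The next 5 by unadjusted p were Dmd-205, Kcp-205, Dlc1-205, Nbea-207 and Ctdsp1-202, and they were of different kinds when the counts behind the share were read.

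In Dmd, Kcp, Dlc1 and Nbea the counts of the retained-intron transcript, not scaled for depth, overlapped between genotypes. Those of the gene's other transcripts were lower in Tet2 KO. Dmd-205, from the gene of dystrophin, the membrane-anchoring protein of muscle, was at 16.2%, 10.6% and 16.3% of the gene in Tet2 KO and 1.13%, 2.12% and 1.86% in Tet2 WT (log2 odds 3.20 ± 0.47, limma adjusted p = 0.0874). Its own counts were 20.5, 27.9 and 48.3 against 26.7, 34.4 and 31.3, while the other Dmd transcripts had 83.4, 271 and 210 against 1672, 1163 and 1137. The gene as a whole fell by 2.45 ± 0.28 (log2, edgeR adjusted p = 0.000409). Dmd-205 was called when only members at 20 or more counts in all 6 libraries were fitted (adjusted p = 0.00742). Another retained-intron transcript of the gene, Dmd-213, held a mean of 25.4% in Tet2 KO and 26.8% in Tet2 WT (log2 odds -0.07). Its abundance fell by 3.10 ± 0.52 (log2, edgeR adjusted p = 0.0243).

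Dlc1-205, from the gene of a GTPase-activating protein, spans intron 13 whole. It was at 15.2%, 25.7% and 29.5% of Dlc1 in Tet2 KO and 3.89%, 5.86% and 4.77% in Tet2 WT (log2 odds 2.55 ± 0.39, adjusted p = 0.103). Its counts were 70.7, 140 and 127 against 148, 137 and 130, and the other Dlc1 transcripts had 291, 294 and 225 against 2493, 1500 and 1787. Another retained-intron transcript of the same gene, Dlc1-209, fell in abundance by 3.05 ± 0.39 (log2, edgeR adjusted p = 0.0102), beside -2.17 for the gene. The difference between these models of Dlc1 was not tested.

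Nbea-207, a model that lies 97.1% in introns of neurobeachin, a scaffold protein of membrane traffic, was the main Nbea transcript in Tet2 KO. It held 79.4%, 73.6% and 69.3% of the gene there and 36.0%, 44.2% and 34.3% in Tet2 WT (log2 odds 2.04 ± 0.32, adjusted p = 0.114). Its counts of 192, 347 and 324, not scaled for depth, overlapped with 248, 246 and 201 in Tet2 WT. The lowest, 192, came from the shallowest library, of 37349505 counts against 49883028 to 53586473 in Tet2 WT. Set against depth, Nbea-207 was higher in each Tet2 KO library than in any Tet2 WT library. Kcp-205, from the gene of a secreted modulator of BMP signalling, was low throughout, at 14.1 to 37.7 counts. It held 19.3%, 30.7% and 16.6% of the gene in Tet2 KO and 1.48%, 3.57% and 1.47% in Tet2 WT. The gene fell by 3.27 ± 0.59 (log2, edgeR adjusted p = 0.00716). Kcp-210, another retained-intron transcript of Kcp, held a mean of 21.3% in Tet2 KO and 26.2% in Tet2 WT (log2 odds -0.09). It passed the count rule through Tet2 WT alone.

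Ctdsp1-202 differed from these in that its own counts were higher in Tet2 KO even without scaling for depth. Ctdsp1 encodes a small phosphatase that acts on the tail of RNA polymerase II, and the model keeps intron 2, which is 12.5% of its length. Its counts were 72.0, 208 and 182 in Tet2 KO and 23.8, 12.5 and 22.2 in Tet2 WT, with no overlap. The share was 14.3%, 23.9% and 26.0% against 4.03%, 1.46% and 2.79%, a log2 odds of 2.76 ± 0.46 that was not called (limma adjusted p = 0.135). Its abundance rose by 3.08 ± 0.46 (log2, edgeR adjusted p = 0.0174), while the gene as a whole did not pass the test (0.10 ± 0.19, adjusted p = 0.785).

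**Figure D3:**
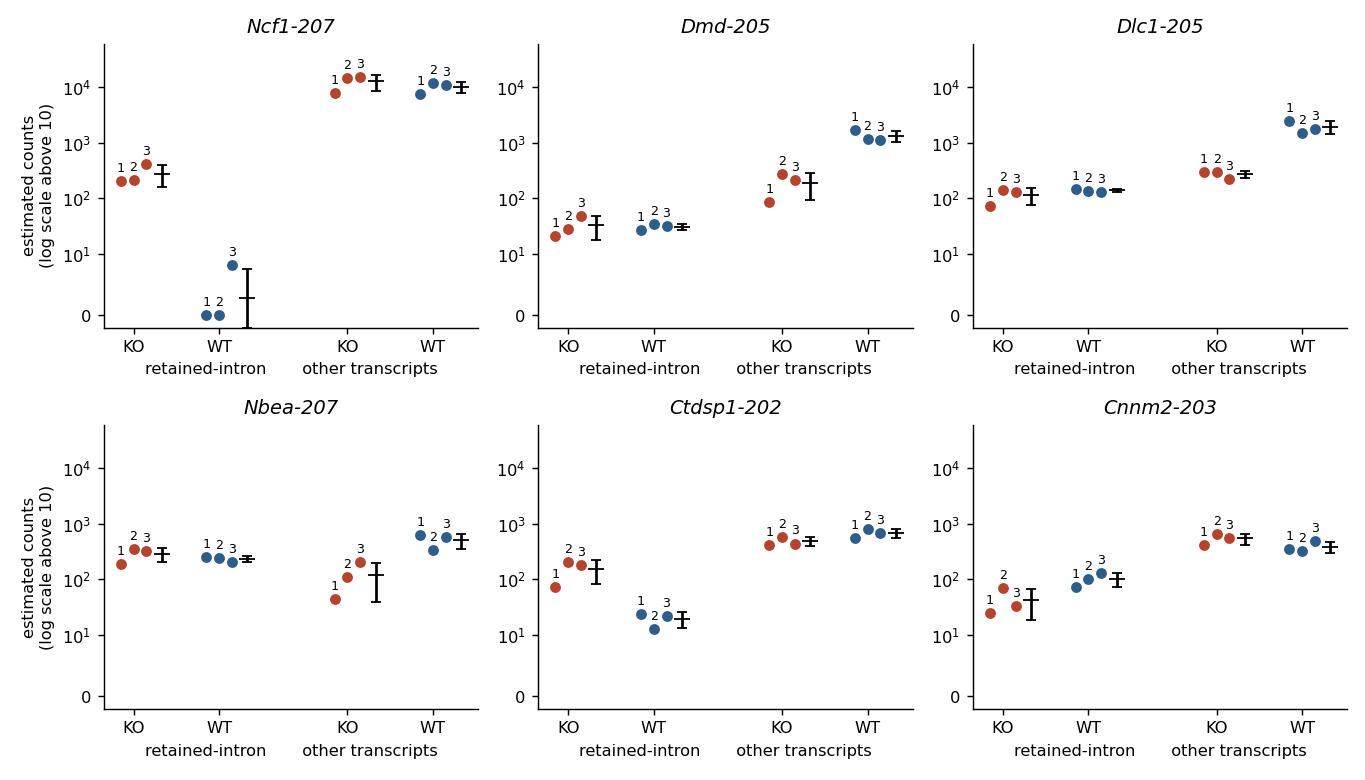
Estimated counts of 6 retained-intron transcripts (left pair in each panel) and of all other transcripts of the same gene (right pair), per library, Tet2 KO in red and Tet2 WT in blue, with mean and SD in black; the axis is linear up to 10 and logarithmic above. Ncf1-207 and Ctdsp1-202 are themselves higher in Tet2 KO. For Dmd-205, Dlc1-205 and Nbea-207 only the other transcripts are apart in these counts, which are not scaled for depth.

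No fall in share was called. The 6 with the smallest unadjusted p were Ppp6r1-203, Akap8l-207, Cnnm2-203, Mapre2-204, Dock10-206 and Fkbp5-204, with limma adjusted p from 0.218 to 0.274. In none of these genes was the gene itself called lower, and Ppp6r1 was called higher (log2 fold change 0.54 ± 0.15, edgeR adjusted p = 0.0347).

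Ppp6r1-203, from the gene of a regulatory subunit of protein phosphatase 6, keeps introns 7, 8 and 9. It was at 1.07%, 1.01% and 1.06% of the gene in Tet2 KO and 3.05%, 2.58% and 3.30% in Tet2 WT (log2 odds -1.44 ± 0.30). Its counts were 52.4, 78.3 and 95.4 against 146, 156 and 220, which did not overlap. Akap8l-207, from the gene of a nuclear A-kinase anchoring protein, showed the same order, at 0.62%, 0.55% and 0.56% against 2.22%, 2.65% and 1.32% (-1.60 ± 0.35), with 55.9 to 72.0 counts in Tet2 KO and 149 to 275 in Tet2 WT.

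Cnnm2-203, from the gene of a membrane protein of magnesium transport, held 8.72%, 14.9% and 8.89% of the gene in Tet2 KO and 25.4%, 33.3% and 32.3% in Tet2 WT (log2 odds -1.74 ± 0.39). Only 8 of its bases are intron, so its counts come almost wholly from exon sequence. Mapre2-204, from the gene of a microtubule plus-end protein, was at 0.51%, 0.13% and 0.56% against 1.76%, 1.82% and 1.94%.

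Dock10-206 was the most abundant of these 12 models. It lies 99.7% in introns of Dock10, a guanine nucleotide exchange factor, as a single exon of 1899 nt. It held 50.3%, 73.1% and 46.7% of the gene's TPM in Tet2 KO and 82.2%, 81.6% and 78.2% in Tet2 WT (log2 odds -1.64 ± 0.37, limma adjusted p = 0.271), from 2866, 11656 and 4321 counts against 12964, 15581 and 9722. Tet2 KO replicate 2 lay closest to Tet2 WT, its count above that of Tet2 WT replicate 3; without that library the fall was -2.15 and was called (adjusted p = 0.0125). Fkbp5-204, from the gene of a co-chaperone of the glucocorticoid receptor, was at 2.42%, 0.70% and 0.85% of the gene against 8.41%, 5.72% and 4.39%, and its abundance fell by 2.26 ± 0.43 (log2, edgeR adjusted p = 0.0386) while the gene did not pass the test (0.54 ± 0.66).

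**Figure D4:**
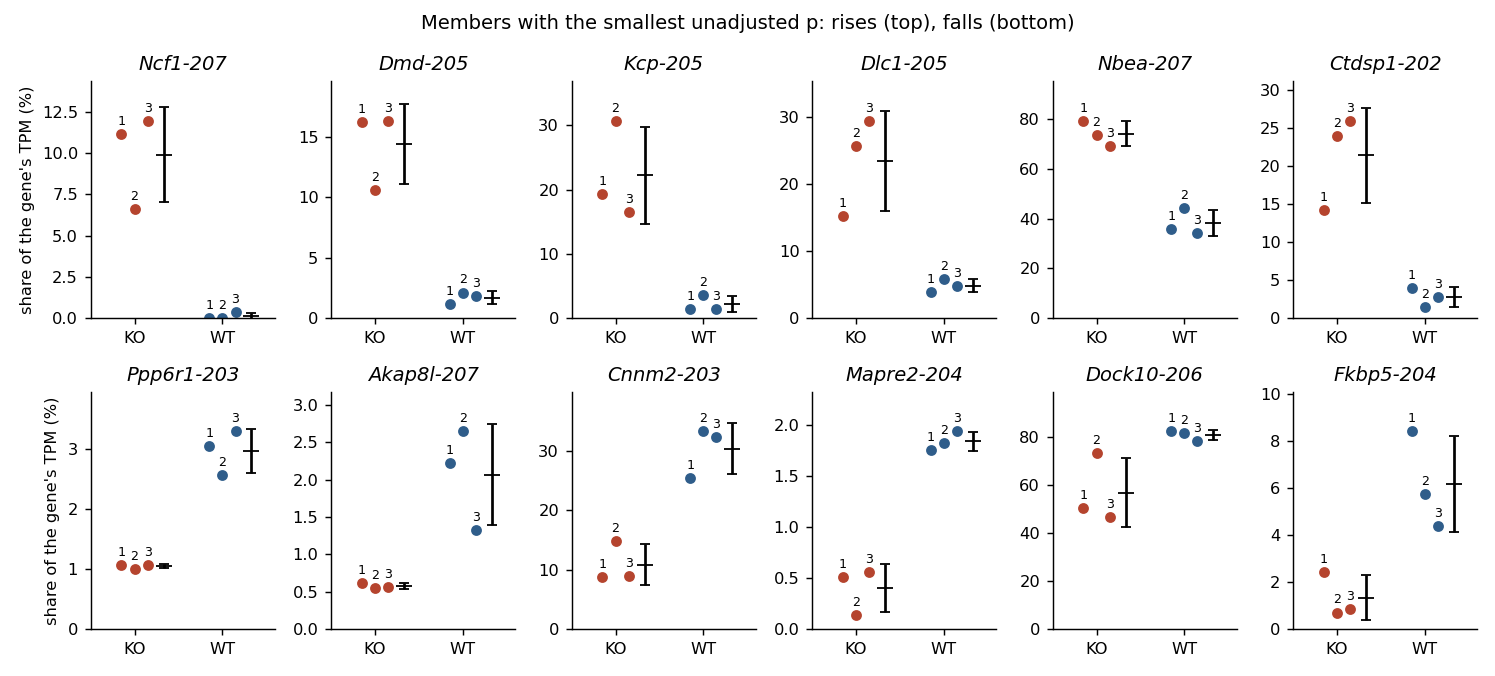
Share of the gene's TPM in percent for the 6 rises (top) and 6 falls (bottom) of smallest unadjusted p, per library, Tet2 KO in red and Tet2 WT in blue, numbered by replicate, with mean and SD in black; each panel has its own axis from 0. The genotypes do not overlap in any panel, and of the 12 members Ncf1-207 alone was called.

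Of the 6 members of highest mean TPM, 5 had shares that overlapped between genotypes. Ctsb-202, from the gene of the lysosomal protease cathepsin B, reached 3269, 1868 and 2764 TPM in Tet2 KO against 1346, 1750 and 1840 TPM, and held 66.6%, 64.7% and 65.8% against 65.2%, 64.4% and 65.3% of the gene (log2 odds 0.05 ± 0.06). Ccl6-202, from a CC chemokine gene, held 59.9%, 60.8% and 59.0% against 59.9%, 58.5% and 60.4% (0.02 ± 0.07). These models are short and mostly exon: 11.4% of Ctsb-202 and 9.15% of Ccl6-202 is intron, so kallisto divided shared exon reads between them and the coding transcripts. A share of TPM also weights a short model more than its counts do; Ctsb-202 had 54662 counts in Tet2 KO replicate 1 beside 192120 for the other Ctsb transcripts.

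H2-Eb1, the beta chain of an MHC class II molecule, had both H2-Eb1-202 and H2-Eb1-204 in this group. They held 18.1%, 13.3% and 17.3% against 15.1%, 14.1% and 15.3%, and 13.0%, 15.3% and 12.1% against 13.5%, 13.4% and 13.3%, with overlap between genotypes in each. Itm2b-202, from the gene of a type II membrane protein, was at 46.1%, 40.4% and 46.3% in Tet2 KO and 37.1%, 37.5% and 37.1% in Tet2 WT, without overlap (log2 odds 0.42 ± 0.09, adjusted p = 0.249), and was called without Tet2 KO replicate 2 (0.53, adjusted p = 0.0250). Ftl1-206, from the gene of the ferritin light chain, was at 8.59%, 6.16% and 6.999% against 5.66%, 6.27% and 6.20% and overlapped. Genes of the MHC and of ferritin have near-identical copies, so the division of their reads is uncertain.

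In abundance, as distinct from share, 133 members were called (edgeR quasi-likelihood test, adjusted p under 0.05), 25 higher and 108 lower in Tet2 KO, in 119 genes; over all transcripts 279 were higher and 1273 lower. That is 1.205% of the members, against 3.42% of all 45434 transcripts tested. Of the 133 members, 46 had passed the count rule through 1 genotype alone and had to differ; among the other 87, 23 rose and 64 fell. In 120 of the 133 the gene was called in the same direction, and in no case was the gene called in the opposite direction. A member's counts are part of its gene's sum, so some of this agreement is built in. By comparison, 1003 of the 5968 parent genes were called, 507 higher and 496 lower, close to the 16.2% of all genes tested.

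Of the 108 members that fell, 6 were among the 14 members in fibroblast marker genes. Col1a2-206 and Postn-207 of these passed the count rule through Tet2 WT alone and had to differ. Over all 45434 transcripts tested, 1273 were called lower. Dcn-204 below is among these 6, while Nid1-202, Eln-205 and Fbln2-206 come from genes outside the marker list. Nid1-202, from the gene of the basement membrane protein nidogen, was at 25.4, 56.7 and 36.2 counts in Tet2 KO and 908, 703 and 594 in Tet2 WT (log2 fold change -4.05 ± 0.33, edgeR adjusted p = 0.00428). Eln-205 (elastin) fell by 2.37 ± 0.33 and Fbln2-206 (fibulin 2) by 3.39 ± 0.41, with the gene at -3.18 and -2.90. Dcn-204, from the gene of the small proteoglycan decorin, fell by 1.74 ± 0.26, less than its gene at -2.92. Other retained-intron transcripts of Dcn and Eln fell more than their genes, Dcn-203 at -3.37 ± 0.58 and Eln-202 at -4.01 ± 0.59. Their genes are expressed by fibroblasts, and the fibroblast marker sum moved in the same direction as given above. With the mean marker level as a covariate, which nearly follows genotype and cannot be told apart from it here, no member was called by edgeR. The fit without the covariate had 1100 of the 11041 members at an unadjusted p under 0.05, and the fit with it had 467. In that fit Nid1-202 was at -4.73 and Dcn-204 at -2.05, while Eln-205 was at -1.26 and Fbln2-206 at 0.18 (edgeR adjusted p = 0.716 to 0.965). Spon2-204, Col6a3-204 and Mmp14-207 had 0 counts in each Tet2 KO library, but they passed the count rule through Tet2 WT alone and had to differ.

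Of the 25 members that rose, 1 was among the 87 members in interferon and innate signalling genes, 1 among the 27 in MHC genes and 2 among the 9 in macrophage marker genes. Irf7-210, from the gene of the interferon regulatory factor that drives type I interferon production, was at 731, 1260 and 669 counts in Tet2 KO and 290, 216 and 373 in Tet2 WT (1.80 ± 0.32, edgeR adjusted p = 0.0297), beside 1.42 for the gene. Oas1g-202 (an oligoadenylate synthetase gene) rose by 1.32 ± 0.25, Cd14-202 (the lipopolysaccharide co-receptor) by 0.87 ± 0.13, H2-Eb1-202 by 0.85 ± 0.16 and Ptprc-208 (CD45) by 0.69 ± 0.13, with their genes at 1.29, 0.90, 0.74 and 0.69. Of these the share was not called in any. Kif23-208, from the gene of a kinesin of cell division, was at 73.4, 80.4 and 83.3 counts in Tet2 KO and 0.008, 3.14 and 0 in Tet2 WT, and is another of the members that passed through Tet2 KO alone. These 133 calls were selected from the results and named after their values were seen. Their number changed with the libraries kept, and a fit on fewer libraries also has less power. Leaving out Tet2 WT replicate 1 gave 14 calls, all of them lower, so that every rise was lost. Leaving out replicate 3 of Tet2 WT gave 20 calls, 4 of them higher, and 72 members were called when replicate 2 of Tet2 WT was left out. Without Tet2 KO replicates 1, 2 and 3 in turn, 103, 191 and 92 were called, of which 7, 44 and 4 were higher. Oas1g-202 lost its call without any single library (edgeR adjusted p = 0.0645 to 0.157).

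**Figure D5:**
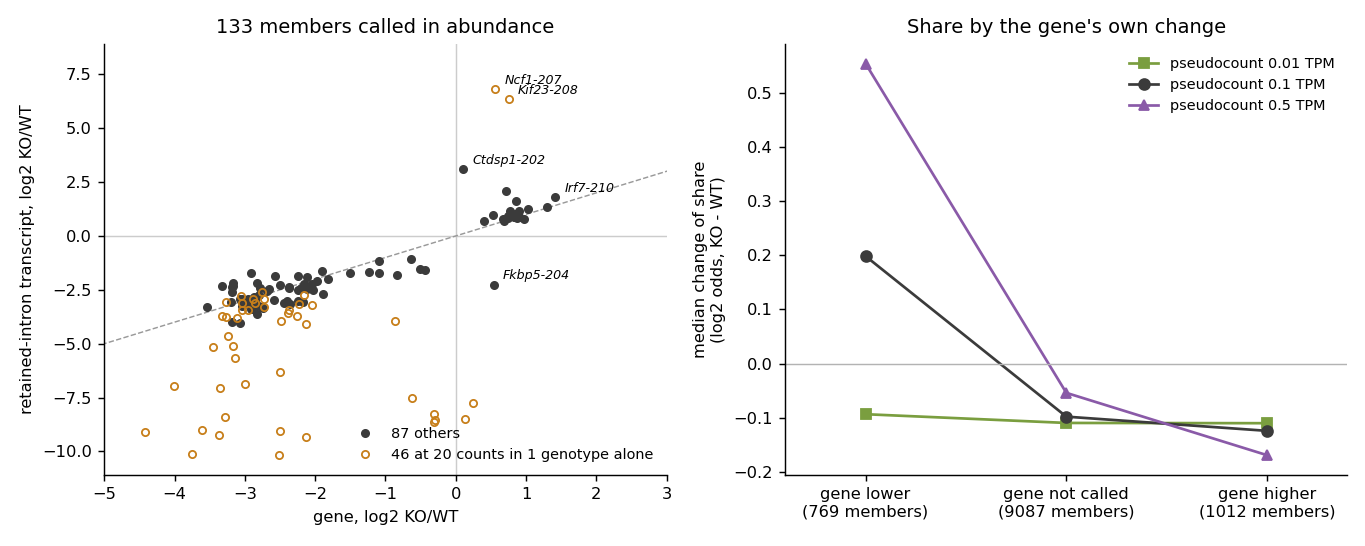
Left, log2 fold change (Tet2 KO over Tet2 WT) of the gene against that of the retained-intron transcript for the 133 members called in abundance, with the line of equal change dashed; the 46 open points passed the count rule in 1 genotype alone. Right, median change of share (log2 odds) for members grouped by the call on their gene, under 3 pseudocounts; the value for genes called lower goes from -0.09 to 0.55 with the pseudocount.

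Members were also read by the change of their gene, as a description, since the share and the gene's count have the gene's transcripts in common. In the 494 genes called lower, the 769 members had a median log2 odds of 0.20 and 62.2% were above 0; in genes not called the median over 9087 members was -0.10, and in genes called higher it was -0.12 over 1012. Coding transcripts of the same genes had medians of -0.02, -0.0004 and 0.002. The value for genes called lower turned with the pseudocount added to TPM, from -0.09 at 0.01 TPM to 0.55 at 0.5 TPM, and was 0.07 over the 227 members with a mean of at least 100 counts, so no direction can be given for it.

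Splicing factor genes, where held-back introns are best known, were read by the lists of their roles. None of their retained-intron transcripts was called in share by limma or in abundance by edgeR. In abundance, 9 of the 301 members in these lists were higher and 12 lower at an unadjusted p under 0.05. Over all members 9.96% were under that p in abundance, and over all transcripts 16.6%. The SR proteins and SR-like factors had 52 members with a median log2 odds of -0.18, the SR protein kinases 25 with -0.30, hnRNP proteins and other splicing regulators 93 with -0.23, and the spliceosome core 86 with -0.25, against -0.09 over all members. In share, at an unadjusted p under 0.05, the SR proteins had 1 higher and 1 lower, the kinases 0 and 4, the hnRNP proteins and regulators 2 and 11, and the core 0 and 3. Members for nonsense-mediated and nuclear RNA decay numbered 45, with a median of -0.05 and with 0 higher and 2 lower. Under the same p in share were 6.07% of all members, 287 higher and 373 lower, and 8.99% of all transcripts. At the gene level the counts were 0 of 24 SR protein genes called, 0 of 9 kinases, 0 of 46 hnRNP and regulator genes, 0 of 32 decay genes and 1 of 58 core genes, Prpf31 of the tri-snRNP, higher by 0.46 ± 0.14 (edgeR adjusted p = 0.0477), a call lost with RLE scaling, beside 16.2% called over all genes. At an unadjusted p under 0.05 these gene lists had 1, 2, 8, 4 and 8 genes, in the same order, beside 28.9% of all genes.

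Among single members of these lists, values are given without a call. Srsf11-207 was at 1.85%, 2.08% and 2.61% of Srsf11 in Tet2 KO and 0.32%, 0.001% and 0.29% in Tet2 WT (log2 odds 3.38 ± 0.68, limma adjusted p = 0.199). Mbnl1-225, from the gene of a muscleblind splicing regulator, was at 0.68%, 1.48% and 1.05% against 1.98%, 2.13% and 2.16% (-1.03 ± 0.30). Nono-202, from the gene of a paraspeckle protein, was at 4.30%, 4.63% and 3.99% against 6.73%, 6.69% and 8.33% (-0.78 ± 0.25). Hnrnpa2b1-208 was at 8.51%, 12.03% and 7.73% against 13.9%, 14.9% and 13.0% (-0.66 ± 0.22). The last 3 were lower in each Tet2 KO library than in any Tet2 WT library. So was Exosc7-207, of an exosome subunit gene, at 1.29% to 1.89% against 3.07% to 3.81%. These members were picked for a small p, and over all transcripts fitted 14.7% did not overlap.

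The CLK kinases phosphorylate SR proteins, and their own transcripts keep introns. All retained-intron transcripts of Clk4 together made up 19.8%, 24.1% and 22.5% of the gene in Tet2 KO and 30.2%, 30.01% and 28.8% in Tet2 WT. The genotypes did not overlap, at a log2 odds of -0.57 ± 0.19, unadjusted p = 0.0101, and the adjusted p of limma was 0.435. Clk1-204 was at 4.95%, 8.04% and 6.07% against 9.58%, 7.84% and 9.20%, with Tet2 KO replicate 2 above Tet2 WT replicate 2, and Clk3-203 was at 6.00%, 7.83% and 7.34% against 11.2%, 9.08% and 8.92%. At the gene level the 3 kinases had log2 fold changes of 0.28 ± 0.17 for Clk4, 0.34 ± 0.12 for Clk1 and 0.41 ± 0.14 for Clk3, none called. The SR protein genes gave no common picture: Srsf5-212 held 29.1%, 26.0% and 28.3% against 31.0%, 30.1% and 31.7%, Srsf1-203 held 32.6%, 27.8% and 31.9% against 28.3%, 22.3% and 22.3%, and Srsf3-204 held 13.9%, 13.8% and 14.4% against 13.8%, 14.8% and 11.7%.

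Tet2 had 4 retained-intron transcripts among the members, and together its retained-intron models made up 38.5%, 37.7% and 41.0% of the gene in Tet2 KO and 41.8%, 41.6% and 43.7% in Tet2 WT (log2 odds -0.20 ± 0.21). Tet2-210, the most abundant, was at 15.05%, 21.1% and 21.5% against 28.6%, 20.5% and 25.1%, and Tet2-203 at 21.6%, 13.0% and 16.8% against 7.67%, 12.2% and 12.6%. Tet2-208 was at 0.71%, 2.81% and 1.32% against 3.28%, 3.19% and 3.95% (-1.17 ± 0.46, adjusted p = 0.503), without overlap. Dnmt1-206, from the maintenance DNA methyltransferase gene, was at 21.98%, 30.6% and 26.5% against 37.0%, 37.1% and 30.9% (-0.58 ± 0.34). Dnmt3a-202, from the de novo methyltransferase gene, overlapped at 28.3%, 21.1% and 23.3% against 24.5%, 23.3% and 28.3%. Over 43 members of 16 genes looked at whatever their values, these among them, 0 were called in share by limma, 3 were lower and 0 higher at an unadjusted p under 0.05, 17 were above 0 and 9 did not overlap between genotypes, beside 14.7% over all transcripts.

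In the lists of immune genes no member was called in share by limma and few were called in abundance. Over all members 6.07% were at an unadjusted p under 0.05 in share. The 87 members of interferon and innate signalling genes had a median abundance change of 0.37 (log2) and a median log2 odds of -0.05, with 1 called higher in abundance, 2 higher and 1 lower in share at an unadjusted p under 0.05, and 31 of the 63 genes called higher (30 with RLE scaling), beside 6.11% of all genes called higher. The 27 members of MHC class I and II genes had a median abundance change of 0.70 and a median log2 odds of -0.05, with 1 called higher in abundance, 2 higher and 2 lower in share at an unadjusted p under 0.05, and 17 of 20 genes tested called higher. Nfkb1-202, from the gene of an NF-kB subunit, had the smallest unadjusted p of the first list, at 47.5%, 27.1% and 36.4% against 20.4%, 21.3% and 24.1% (log2 odds 1.03 ± 0.31, adjusted p = 0.395). Mbd2-204, from the gene of a methyl-CpG binding protein, was at 26.6%, 27.6% and 36.1% against 1.89%, 10.2% and 16.8% (2.26 ± 0.71, adjusted p = 0.411). The 14 members in fibroblast marker genes had a median abundance change of -2.82 and a median log2 odds of 0.37. Of them 6 were called lower in abundance, including Col1a2-206 and Postn-207, which passed the count rule through Tet2 WT alone.

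At the edge of the rule, Chd3-208, Sec31a-203 and Top2b-208 came in with exactly 20 counts in the library that decided it. Susd2-203 stayed out, at 0 counts throughout Tet2 KO and at 19.99, 27.0 and 26.5 counts in Tet2 WT, and 1110 retained-intron transcripts reached 20 counts in 2 libraries. Of the members, 7221 were at 20 or more counts in all 6 libraries, 25 passed through Tet2 KO alone and 260 through Tet2 WT alone, 166 of the last in genes called lower. The count rule kept those 260 only through Tet2 WT, so it favoured lower values in Tet2 KO from the start. Among them 0 were called in share by limma, where 5 were higher and 34 lower at an unadjusted p under 0.05. In abundance 44 were called. Over all transcripts 8.99% were under that p in share, and 3.42% were called in abundance.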

How the data were processed

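The 6 bulk RNA-seq libraries, 3 labelled Tet2 KO and 3 Tet2 WT, were all analysed. Trimming was by Trim Galore 0.6.4 and quantification by kallisto 0.44.0 on GRCm38, per the submitters' processing notes. The authors deposited an estimated count (expected count from kallisto's model) and a TPM value per transcript, per the file headers; reads shared between transcripts of a gene are divided by that model, so shares rest on few distinguishing reads. Of the 118783 transcripts, 116622 (98.2%) matched GENCODE M21 by identifier without version, 99.8% of these with the same length. At most 0.67% of a library's counts were unmatched and left out.

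Shares were fitted with limma 3.58.1 (robust empirical Bayes) on log2((TPM + 0.1)/(TPM of the gene's other transcripts + 0.1)), with a prior trend on counts, over 40905 transcripts. Abundance was fitted with edgeR 4.0.16 (quasi-likelihood, TMM) on estimated counts rounded to whole numbers, per transcript (45434) and summed per gene (16386), in R 4.3.3. DESeq2 1.42.0 was an alternative. Genotype was the only term; p-values were adjusted by Benjamini-Hochberg over each whole fit, with calls under 0.05. Fits were tested on simulated data. Introns shorter than 30 nt were not counted. The members and lists were chosen with earlier results of these data known. Members were named as: the 6 smallest p in each direction of share, the 6 highest mean TPM, all members of fixed genes, and 4 per list. The precision is set by 37349505 to 55771087 counts per library and 3 libraries per genotype. Same-numbered libraries did not deviate together (correlations 0.0028, 0.038 and 0.026). Malat1 and other nuclear RNAs were not analysed here.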

Additional observations from a re-analysis of the deposited data

How the results depend on the processing

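The number of members called in share, 1 in the reported fit, was 1 with coding transcripts alone as the others and 1 (Dmd-205, not Ncf1-207) with members at 20 counts in all 6 libraries. It was 0 with the arcsine square root, a pseudocount of 0.01 TPM, shares of estimated counts, no low-count filter, the fibroblast marker covariate or the replicate block, 3 with a single prior without trend, 14 with edgeR's diffSpliceDGE and 18 with a pseudocount of 0.5 TPM, all 18 higher and 14 of them in genes called lower. Leaving out 1 library gave 0 to 3. Ncf1-207 had a higher share in Tet2 KO in each alternative that fitted it; the count rule left it out at 20 counts in all 6 libraries and without any single Tet2 KO library. The number called in abundance, 133, was 132 with RLE scaling, 137 without filter, 164 in all 6 libraries, 501 with DESeq2, 26 (all lower) with the replicate block and 0 with the covariate, which nearly follows genotype, and 14 to 191 without 1 library. Under the covariate Fbln2-206 turned to 0.18 and was not called. The labels do not say whether same-numbered libraries belong together, and their correlations are given above. Whether a call lost under the block reflects a weaker effect was not tested. Parent genes called, 1003, were 993 to 1342 with RLE scaling, no filter and DESeq2, 847 with the block and 504 to 1278 without 1 library; without Tet2 KO replicate 3 they were 594 and without Tet2 WT replicate 1 they were 504. The difference of the median share stayed between -0.23 and -0.86 percentage points. The cause of these changes was not tested. Depth limits the members near 20 counts.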
